A study of Caenorhabditis elegans with 2 samples.

Results

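Coding exons of autosomal genes held 1331 of the 29431 peaks in the pooled relaxed list of a ChIP-seq experiment on the nuclear hormone receptor NHR-12, or 1331 of its 23360 autosomal peaks. A peak was taken as a member when its summit lay in coding sequence of a protein-coding gene on chromosomes I to V and more than 500 bp from the 5' end of every protein-coding gene. No peak height entered this choice. ChIP-seq enriches DNA that lay near a chosen protein, and the summit is the base at which the peak caller placed the highest enrichment. Both samples were whole Caenorhabditis elegans L2 larvae of strain OP318, males and females pooled, with the genotype unc-119(ed3) III; wgIs318. The transgene wgIs318 carries nhr-12 fused to eGFP, the labels name no other agent or treatment, and they do not say in which cells it is expressed. The samples were biological replicates 1 and 2 of 1 group. No untagged strain was analysed here, and with 1 group no test between conditions was possible, so values are given as descriptions with the spread of the 2 replicates.

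Nuclear hormone receptors are transcription factors with a zinc finger domain that contacts DNA and a domain that can bind small lipophilic molecules. The family is greatly expanded in nematodes, and most of its members have no known ligand. Sites of such factors are usually sought near gene starts and in introns or intergenic DNA. Coding sequence is richer in G and C than the rest of the worm genome and its letters are held by the protein code.

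The sequences at the summits of 5 of the strongest members are shown here because strong members differed in base composition, here from 25.7% to 51.5% GC, within a range of 19.8% to 65.3% over all members. Each holds the summit base and 50 bases on either side, written 5' to 3' on the coding strand of its gene, with coding bases in capitals and intron bases in lower case. The bases are from the RefSeq genome of WBcel235, the assembly that ce11 names. In order, the windows are chrII:14406515-14406615 on the plus strand, chrV:13364260-13364360 on the plus strand, chrII:10840143-10840243 on the plus strand, chrIV:11024829-11024929 on the plus strand and chrII:5165622-5165722 on the minus strand.
nurf-1: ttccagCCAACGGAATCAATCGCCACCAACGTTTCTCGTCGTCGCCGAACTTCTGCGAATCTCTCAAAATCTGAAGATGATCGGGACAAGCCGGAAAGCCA
srg-46: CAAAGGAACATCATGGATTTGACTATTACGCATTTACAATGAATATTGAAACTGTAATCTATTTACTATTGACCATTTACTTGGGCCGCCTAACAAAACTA
mix-1: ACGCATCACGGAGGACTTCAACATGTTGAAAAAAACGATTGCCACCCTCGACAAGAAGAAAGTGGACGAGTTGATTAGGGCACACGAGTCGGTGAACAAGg
alh-3: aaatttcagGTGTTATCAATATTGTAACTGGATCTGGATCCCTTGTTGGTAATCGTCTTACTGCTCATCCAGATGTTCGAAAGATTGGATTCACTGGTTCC
srb-3: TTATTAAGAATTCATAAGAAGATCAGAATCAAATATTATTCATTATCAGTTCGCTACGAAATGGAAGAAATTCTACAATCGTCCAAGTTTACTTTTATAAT

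The windows of srb-3 and srg-46 had 25.7% and 32.7% GC. Those of mix-1 and nurf-1 had 48.5% and 51.5%, and that of alh-3 had 39.6%. Only srg-46 and srb-3 among the 5 had coding bases throughout the window. The others ran into an intron at 1 end.

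Peaks were sparser in coding exons than in introns or intergenic DNA. Members made up 5.70% of autosomal peaks in the pooled list, whereas the coding bases that the rule allows made up 19.9% of autosomal bases, or 16.4 Mb. That is 81.2 peaks per Mb, against 331 in introns, 359 in intergenic DNA, 309 within 500 bp of a protein-coding 5' end and 283 over all autosomal bases. Introns held 7868 of the pooled autosomal peaks, intergenic DNA 7559 and the bases near 5' ends 5002. A further 539 summits lay in coding sequence but within 500 bp of a protein-coding 5' end and were not members, out of 1870 coding summits in all.

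The replicates differed in how many peaks fell in coding exons. By the same rule replicate 1 had 3561 such peaks of 23996 autosomal peaks (14.8%), and replicate 2 had 1322 of 23884 (5.54%), a mean of 10.2% ± 6.58 (SD, n = 2). Per Mb of allowed coding sequence these were 217 peaks in replicate 1 and 80.6 in replicate 2. Replicate 1 therefore had more coding exon peaks, and replicate 2 stood close to the pooled list. Introns went the other way, with 285 peaks per Mb in replicate 1 and 346 in replicate 2. The pooled list was called on both replicates together, so it is not independent of them. Which replicate better measures the set was not tested.

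**Figure D1:**
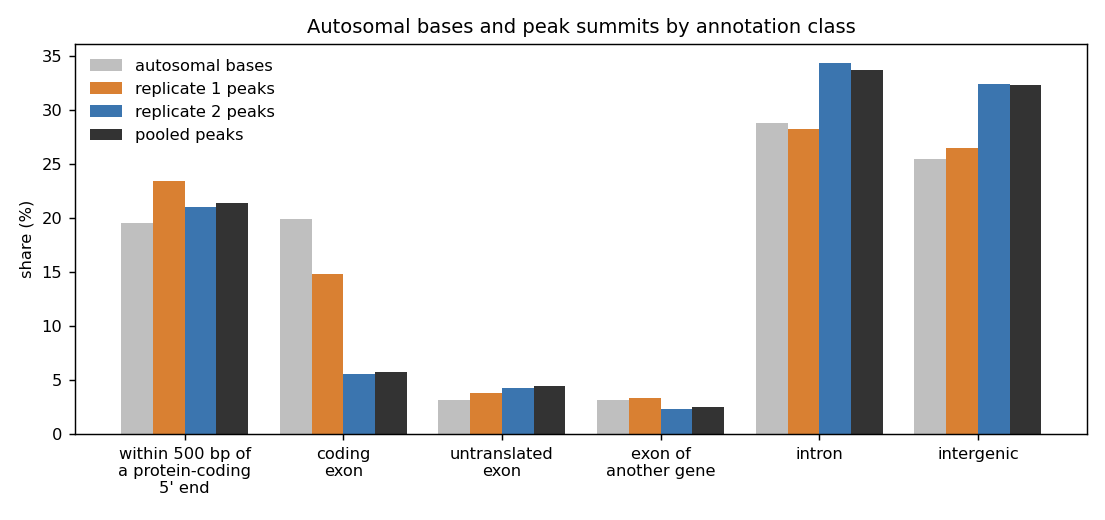
Share (percent, vertical axis) of autosomal bases and of autosomal peak summits in each of 6 annotation classes, with bars for the bases, replicate 1, replicate 2 and the pooled list. Coding exons held 19.9% of bases but 14.8%, 5.54% and 5.70% of peaks, while introns held 28.8% of bases and 33.7% of pooled peaks.

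Members had lower peak heights than other autosomal peaks of the pooled list. The signal value, which the authors' caller gave for each peak against a control on a scale of its own in each list, ran from 9.21 to 37.7 over the members, with quartiles of 10.3 and 13.7 and a median of 11.6. All autosomal peaks of the pooled list had a median of 12.6 and reached 171. Expressed as a percentile among the autosomal peaks of the same list, the median member stood at 38.1. Intron peaks stood at 47.1, intergenic peaks at 52.5 and peaks near 5' ends at 53.7. In the replicates' own lists the coding exon peaks stood at 47.0 and 37.3 (SD 6.87, n = 2). Intron peaks of the same lists stood at 47.1 and 47.9, so in replicate 1 coding exon peaks were not lower than intron peaks.

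Of 6 ranges of rank, the strongest peaks had the smallest share of members. Only 14 members (1.05%) were among the 1000 strongest autosomal peaks, against 4.28% of all autosomal peaks, 8.26% of peaks near 5' ends and 2.66% of intron peaks. Coding exon summits made up 1.40% of ranks 1 to 1000, 3.10% of those up to rank 5000 and 4.80% of those up to rank 10000. Their share was 6.64% in the next ranks up to 15000, 7.60% up to 20000 and 7.17% in the lowest ranks, which end at 23360. Of the replicates' own coding exon peaks, 60 of 3561 in replicate 1 and 14 of 1322 in replicate 2 were in the upper 1000 of their list.

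**Figure D2:**
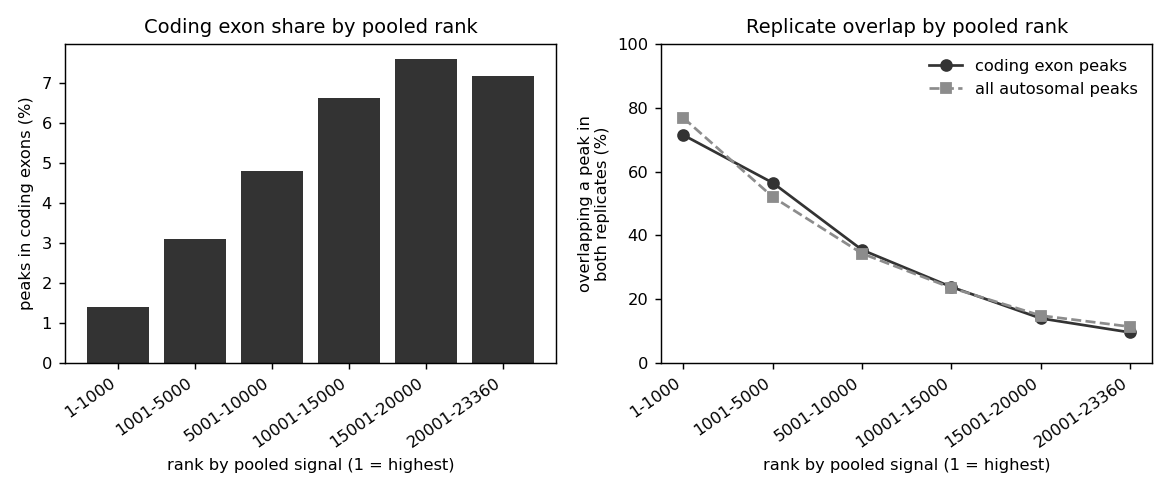
Share of autosomal pooled peaks whose summit is in a coding exon (left, percent) and share found in both replicates (right, percent), by rank of pooled signal from strongest to weakest. The coding share rose from 1.40% to 7.60% before it was 7.17% in the weakest ranks, and members and all autosomal peaks had similar shares in both replicates within each rank range.

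The strongest member lay in the second coding exon of snpc-4, which encodes the DNA-binding subunit of the complex that starts transcription of small nuclear RNA genes and, in the worm, also acts at piRNA genes. Its signal was 37.7 in the pooled list, 22.5 in replicate 1 and 19.0 in replicate 2, which put it at ranks 150, 33 and 1163 of their autosomal peaks. It was the one peak of the 157 autosomal peaks in the deposited thresholded list whose own summit lay in an allowed coding exon. The next strongest, in daf-11, a transmembrane guanylyl cyclase of chemosensory neurons, had a pooled signal of 31.7 and values of 5.40 in replicate 1 and 25.01 in replicate 2. These were ranks 4476 and 262, so replicate 2 ranked it far higher.

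Further strong members lay in nurf-1, mix-1 and alh-3. nurf-1 encodes the large subunit of the NURF chromatin remodeler, and the peak in its coding exon 22 had a signal of 27.4 in the pooled list, 5.66 in replicate 1 and 18.8 in replicate 2. mix-1 encodes an SMC subunit of condensin and of the dosage compensation complex, and its peak, in coding exon 13, had signals of 26.5, 7.21 and 17.9 in the same order. alh-3 encodes a member of the aldehyde dehydrogenase family, with signals of 26.5, 6.54 and 18.9. These 3 peaks were ranked 460, 538 and 539 in the pooled list, and each overlapped a peak in both replicates.

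Chemoreceptor genes held 6 of the 20 strongest members, against 160 of all 1331 members. They encode G protein-coupled receptors with which worm sensory neurons detect chemicals. The srh-2 peak had a pooled signal of 31.6, with 6.16 in replicate 1 and 25.1 in replicate 2. It lies 21 bp from the 5' end of an alternative transcript of a protein-coding gene, the only one of the 20 within 500 bp of such an end, although 110 members (8.26%) are. A pair of members in srg-46 had signals of 27.1 and 22.5 and overlapped the same peak in each replicate, so they are not separate observations. In srb-3 the pooled signal was 25.4 and that of replicate 2 was 27.0, and no peak of replicate 1 overlapped it. The srw-44 and srxa-16 peaks, at 22.6 and 22.5, also had no peak in replicate 1.

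Of the 20 strongest members, 14 overlapped a peak in both replicates, 5 had none in replicate 1 and 1 had none in replicate 2. They stood at ranks 150 to 1185. Of all autosomal peaks, 76.8% in ranks 1 to 1000 and 52.03% in the ranks from there to 5000 overlapped a peak in both replicates. The one without a replicate 2 peak, in F40G9.8, had a pooled signal of 23.4 and a replicate 1 signal of 4.36. The remaining ones included peaks in lgmn-1, which encodes a legumain-type protease (24.6), and mak-1, a MAP kinase-activated protein kinase (23.9). GC content was under 35% in 8 of the 20 and at least 45% in 5. Strong members were therefore of mixed base composition.

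Overlap with the replicates was tallied at a minimum of 1 bp. Of the 1331 members, 320 (24.0%, exact 95% interval 21.8 to 26.4) overlapped a peak in both replicates, against 29.4% of all autosomal pooled peaks. A further 620 (46.6%) overlapped a peak in replicate 2 only, 246 (18.5%) in replicate 1 only and 145 (10.9%) in neither. In total 566 members (42.5%) had a peak in replicate 1, against 41.6% of autosomal peaks, and 940 (70.6%) had one in replicate 2, against 80.2%. Such intervals cover the number of peaks only, since read depth is unknown. Intron peaks were in both replicates in 25.6% of cases, intergenic peaks in 30.1% and peaks near 5' ends in 34.9%.

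Presence in both replicates went with pooled peak height, but the 2 are not independent, since the pooled list was called on both replicates together. Members in both had a median pooled signal of 13.5, those in replicate 2 only 11.7, those in replicate 1 only 10.8 and those in neither 10.3. Among ranks 1 to 1000, 71.4% of members were in both replicates, against 76.8% of all autosomal peaks, the former over 14 members. The shares were 56.5% and 52.03% for the ranks from there to 5000, 35.4% and 34.3% for those up to 10000, and 9.54% and 11.3% in the lowest ranks. Within a rank range, members and all autosomal peaks were thus within a few percentage points of each other.

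Coding exon peaks called in each replicate were also set against the other replicate. Of the 3561 in replicate 1, 193 (5.42%) overlapped a coding exon peak of replicate 2, and 514 (14.4%) overlapped a peak of any class there. From the side of replicate 2, 188 of 1322 (14.2%) met a coding exon peak of replicate 1 and 341 (25.8%) a peak of any class. Over all autosomal peaks, 30.3% of those in replicate 1 and 30% of those in replicate 2 overlapped a peak of any class in the other. Intron peaks met an intron peak of the other replicate in 26.3% and 21.5% of cases. Of the members, 388 (29.2%) overlapped a coding exon peak of replicate 1 and 794 (59.7%) one of replicate 2. The pooled set therefore shared more with replicate 2.

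Very few members overlapped a peak that was high in both replicates. Those overlapping a peak in the upper 1000 of each were 2, against 0.98% of all autosomal peaks, and lay in dhc-4, which encodes a dynein heavy chain, and in C06B3.6. Together with snpc-4 they were also the 3 members (0.225%) that overlapped a peak of the thresholded list, against 0.762% of autosomal peaks. The dhc-4 member had a pooled signal of 19.0 and overlapped peaks of 14.2 in replicate 1 and 35.3 in replicate 2. For C06B3.6 the values were 10.6, 12.2 and 31.8. In the pooled list these 2 members stood at ranks 2605 and 17682, and each had a stronger pooled summit within 500 bp. Replicate values of a member are those of the strongest peak it overlaps. Here they may belong to the stronger neighbour, which was not tested. For both, the summit of the thresholded peak that they overlapped was not in an allowed coding exon.

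Members were richer in GC than other peaks and poorer in GC than coding sequence at large. The summit and 50 bp on either side had a median GC content of 35.6% over members (quartiles 31.7 and 41.6), 27.7% over all autosomal peaks and 40.6% over windows tiled through the allowed coding sequence. Coding exon peaks of replicate 1 had a median of 40.6%, the same as the coding sequence itself, and those of replicate 2 had 35.6% (SD 3.50, n = 2). On the coding strand members had 32.4% A, 18.0% C, 19.1% G and 30.6% T, against 30.8%, 20.1%, 21.3% and 27.9% in allowed coding sequence. Flanks, from 51 to 160 bp of the summit, were also poorer in GC, with a median of 34.1% against 38.2%.

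Peak density fell steeply with GC content in the pooled list and in replicate 2, and less in replicate 1. In coding sequence under 25% GC the pooled list had 519 members per Mb, from 25 to 30% it had 381, and from 30 to 35% it had 150. At 35 to 40% there were 69.5 per Mb, and in the 3 higher ranges between 43.6 and 51.1. Replicate 1 had 332 per Mb under 25% GC and 174 from 40 to 45%, while replicate 2 had 678 and 42.0. At 50% GC or more there were 260 per Mb in replicate 1 and 42.5 in replicate 2.

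Introns of the same GC content had more pooled peaks than coding exons in every range. The ratio of intron to coding density was 1.46 under 25% GC, 1.27 from 25 to 30%, 1.46 from 30 to 35% and 1.499 from 35 to 40%, and then rose through 2.01 and 2.31 to 3.22 at 50% or more. In replicate 1 it was between 0.968 and 1.49, and in replicate 2 between 1.22 and 3.15. Over all GC contents together the pooled densities were 331 and 81.2 per Mb, so ranges of like GC content differed less than the classes as a whole.

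**Figure D3:**
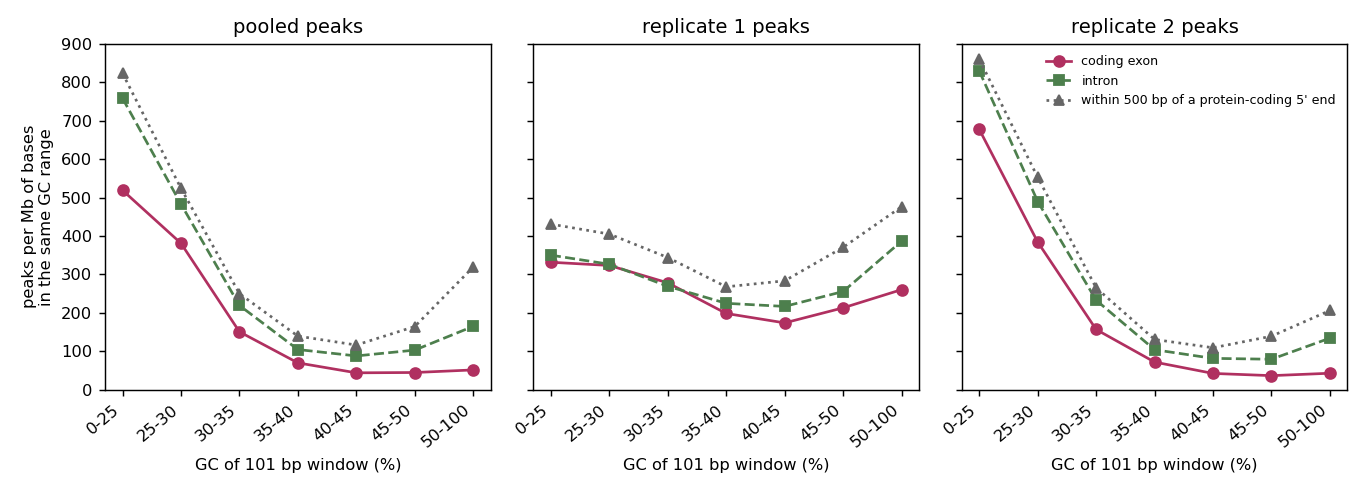
Peaks per Mb of bases of the same GC content (vertical axis) by GC content within 50 bp (horizontal axis, percent), in 1 panel for the pooled list and 1 for each replicate, with lines for coding exons, introns and bases within 500 bp of a protein-coding 5' end. Coding density in the pooled list went from 519 per Mb under 25% GC to between 43.6 and 51.1 from 40% up, and replicate 1 stayed between 174 and 332.

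The replicate in which members were found varied with GC content, as it did over all autosomal peaks. Of the 620 members under 35% GC, 36.9% had a peak in replicate 1 and 76.8% in replicate 2. The 497 members from 35 to 45% had 44.5% and 68.0%, and the 214 at 45% or more had 54.2% and 58.9%. Over all autosomal peaks the shares in replicate 1 were 38.1%, 50.6% and 70.8% in the same GC ranges, and those in replicate 2 were 82.1%, 71.2% and 72.0%. The share in both replicates barely moved, at 23.4%, 24.3% and 25.2%. Over all autosomal peaks of the same GC content that share was 27.7%, 30.8% and 49.7%, and the difference from the members was not tested.

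Within genes, members lay later in the coding sequence and nearer to exon ends than coding bases at large. Position was measured from 0 at the start codon to 1 at the stop codon of the longest coding transcript holding the summit. The median member stood at 0.623 and the median allowed base at 0.580, with 0.581 for replicate 1 and 0.621 for replicate 2. The final 10% of the coding sequence held 15.7% of members and 11.4% of allowed bases. That is 112 members per Mb, against 81.2 over all allowed coding sequence. The lowest density was 60.1 per Mb, between 50 and 60%, and the first 10% had 93.4. Replicate 1 had 237 peaks per Mb in the final 10%, against 217 over all. Because bases within 500 bp of a 5' end are not allowed, both medians are above the middle of the sequence.

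**Figure D4:**
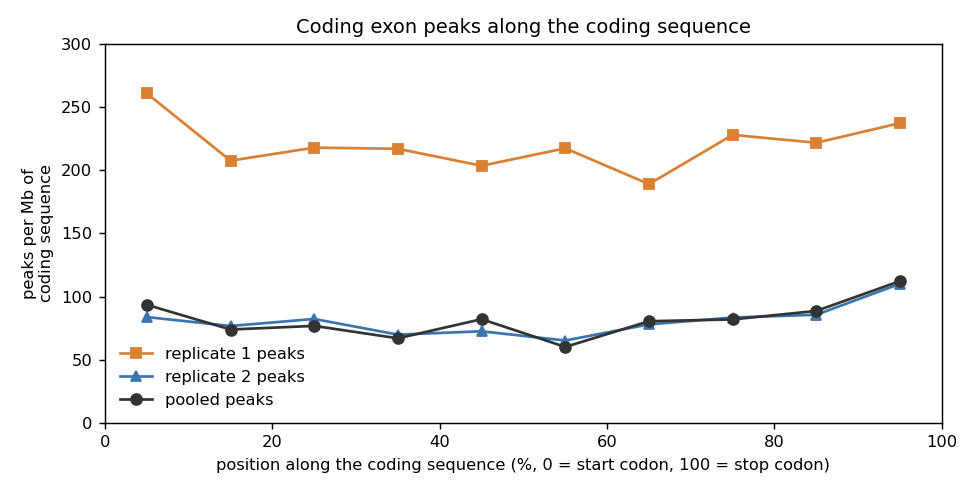
Peaks per Mb of allowed coding sequence (vertical axis) in steps of 10% along the coding sequence from start codon to stop codon (horizontal axis), with lines for the pooled list and each replicate. The pooled list had 112 per Mb in the final 10% and 60.1 between 50 and 60%, its lowest step. Replicate 2 lay close to the pooled list, and replicate 1 lay above both throughout.

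By exon, 984 members (73.9%) were in internal coding exons, 305 (22.9%) in the last, 39 (2.93%) in the first and 3 in the only coding exon of their transcript. Internal exons made up 81.2% of allowed bases, last exons 16.7% and first exons 1.91%. Per Mb this came to 124 members in first exons, 112 in last exons and 73.9 in internal exons. First exons held 2.56% of coding exon peaks in replicate 1 and 2.50% in replicate 2. The last exon share was 17.5% in replicate 1 and 22.01% in replicate 2, so the excess of last exons over their share of bases was larger in replicate 2 and the pooled list. Members were in shorter exons, with a median of 203 bp against 288 bp for allowed bases, and lay a median of 41 bp from the nearer exon end, against 64 bp. Their transcripts had a median coding length of 1350 bp, against 1689 bp. The coding exon peaks of replicate 1 were closer to the allowed bases, with a median exon length of 279 bp and coding length of 1641 bp. Those of replicate 2 had 197 bp and 1332 bp.

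Most member intervals were not purely coding. All 1331 had a width of 320 bp and none shared an interval with another. A median of 68.1% of those bases was coding, against 77.5% for the same span around allowed bases. For the coding exon peaks of replicate 1 this median was 75.3%, and for those of replicate 2 it was 66.25%. The span was wholly coding for 110 members (8.26%, against 20.4%), and under 50% coding for 242 (18.2%, against 10.8%). At this width a summit in an exon cannot be told apart from enrichment that reaches in from the intron beside it. The median member lay 1465 bp from the nearest protein-coding 5' end, and the median allowed base 1616 bp.

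The limit of 500 bp cut through a continuous range. Just inside it were peaks in cdr-3 at 504 bp (signal 17.1), and in F44B9.8 and Y50E8A.12 at 506 bp (9.92 and 14.7). Just outside it were peaks in srh-258 at 498 bp (15.4), srh-186 at 494 bp (10.4) and srsx-22 at 494 bp (12.3). Another autosomal summit lay within 500 bp of 142 members (10.7%), against 12.3% of all autosomal peaks, and it was a stronger one for 76 (5.71%). The central 51 bp of 1326 members (99.6%) occurred once in the genome.

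The members fell in 1229 genes, 7.88% of the 15595 genes that had allowed coding bases. Of these genes 1139 held 1 member, 81 held 2, 7 held 3, and snpc-4 and icl-1 held 4 and 5. A peak within 500 bp of the gene's own 5' end was present in 471 of the genes with a member (38.3%), against 4612 (29.6%) of all genes with allowed bases. Genes with a member had more allowed bases, with a median of 1068 against 729 in genes without one.

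icl-1 encodes the bifunctional enzyme of the glyoxylate cycle, which lets the worm make sugar from stored fat, and its 5 members had pooled signals of 22.4, 23.3, 21.0, 14.3 and 10.8. They spanned V:724792-727043 on ce11, and 2 more peaks stood at its 5' end with signals of 27.2 and 15.0. The member with a signal of 23.3 had 13.7 in replicate 1, rank 165, and 12.1 in replicate 2, rank 8220, so here replicate 1 ranked the site higher. snpc-4, on chromosome I, had members of 37.7, 9.50, 17.7 and 14.4, all overlapping peaks in both replicates. In both genes the peaks ran along much of the gene body, and some summits were close enough for their intervals to overlap.

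Chemoreceptor genes held the most members of the 29 families listed by gene symbol. Of 1324 such genes with allowed bases, 153 (11.6%, exact 95% interval 9.88 to 13.4) held 160 members. Their density was 183 per Mb in the pooled list, 234 in replicate 1 and 195 in replicate 2, against 75.4 per Mb over all other genes in the pooled list and 216 in replicate 1. The difference was thus present in the pooled list and hardly in replicate 1. Genes with the prefix srh and str held 21 members each, srx 14, srz 13 and srw 10.

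Chemoreceptor coding sequence is poor in GC, with a median of 36.6% over its allowed windows. In sequence under 35% GC, the pooled density was 336 per Mb in chemoreceptor genes and 188 in other genes, and in replicate 2 it was 353 and 196. Replicate 1 had 284 and 289, with no excess. At 35% GC or more the pooled densities were 80.1 and 52.1, and those of replicate 1 were 200.2 and 201.2. Pooled densities in chemoreceptor genes were thus higher on both sides of 35% GC, and those of replicate 1 were close to other genes.

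**Figure D5:**
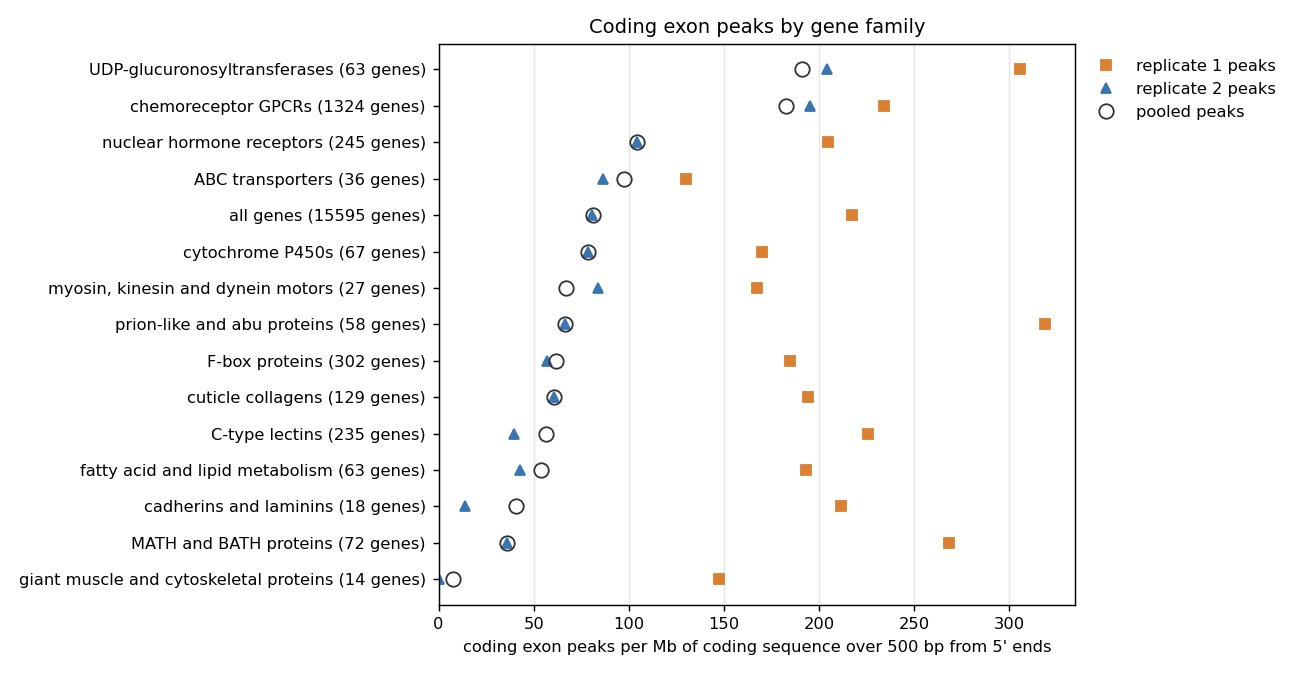
Peaks per Mb of allowed coding sequence (horizontal axis) in all genes and in the families with at least 0.05 Mb of it, with open circles for the pooled list, squares for replicate 1 and triangles for replicate 2. In the pooled list UDP-glucuronosyltransferases had 191 per Mb and chemoreceptor genes 183, against 81.2 over all genes, and in replicate 1 these were 306, 234 and 217.

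UDP-glucuronosyltransferases, which attach sugar acids to toxins and metabolites so that they can be excreted, held members in 13 of 63 genes (20.6%, exact 95% interval 11.5 to 32.7). Their densities were 191 per Mb in the pooled list, 306 in replicate 1 and 204 in replicate 2. The strongest was in ugt-20, with a pooled signal of 21.1, 3.26 in replicate 1 and 17.8 in replicate 2. The ugt-55 and ugt-21 peaks, with pooled signals of 17.1 and 13.9, had no peak in replicate 1.

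Heat shock genes had the highest density of the listed families in the pooled list, over few genes. Members lay in 4 of 16 genes, 6 members in all or 423 per Mb, with 846 in replicate 1 and 352 in replicate 2. hsp-110, a cytosolic chaperone, had a pooled signal of 21.4, with 14.1 in replicate 1, rank 150, and 8.96 in replicate 2, rank 17964. hsp-70 had a pooled signal of 17.3 and hsp-60, the mitochondrial chaperonin, 15.3. For hsp-90 the values were 16.3 in the pooled list, 5.48 in replicate 1 and 11.5 in replicate 2. The hsp-110, hsp-90 and hsp-60 windows had GC contents of 48.5%, 49.5% and 52.5%, unlike those of most members.

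Genes of the receptor's own family were near the level of all genes. Of 245 nuclear hormone receptor genes with allowed bases, 24 (9.80%, exact 95% interval 6.38 to 14.2) held 1 member each. The density was 105 per Mb in the pooled list, 205 in replicate 1 and 105 in replicate 2. The strongest lay in nhr-39 (18.0 in the pooled list, 4.71 in replicate 1 and 12.7 in replicate 2), nhr-140 (17.1, 3.44 and 9.70) and nhr-130 (16.6, none and 14.8). Of the 24, 4 (16.7%) overlapped a peak in both replicates, against 24.0% of all members and 29.4% of all autosomal peaks. nhr-12 itself, at V:10082133-10084049, held no member and no pooled peak anywhere in the gene. unc-119, whose mutant allele the strain carries, held 1 member among 4 pooled peaks. That member lay in its last coding exon with a signal of 17.5 in the pooled list, 8.79 in replicate 1 and 14.4 in replicate 2.

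Families with long coding sequences differed in their densities, against 81.2 per Mb over all genes. Giant muscle and cytoskeletal proteins had 2 members in 0.264 Mb, or 7.56 per Mb, with 148 per Mb in replicate 1 and 0 in replicate 2. One of the 2 lay in unc-89, an obscurin-like muscle protein, with 13.2 in the pooled list and 5.83 in replicate 1. Cadherins and laminins, which link cells to each other and to the matrix, had 6 members in 5 of 18 genes or 41.0 per Mb, the strongest in cdh-5 with 21.1. Their density was 212 per Mb in replicate 1, against 217 over all genes, and 13.7 in replicate 2, against 80.6. Motor proteins had 8 members in 7 of 27 genes or 66.9 per Mb, and ABC transporters 9 in 7 of 36 or 97.5 per Mb. Motors had 167 per Mb in replicate 1 and 83.7 in replicate 2, and ABC transporters 130 and 86.6. The share of genes with a member was 14.3% in the giant proteins, 27.8% in cadherins and laminins, 25.9% in motors and 19.4% in ABC transporters, each above the 7.88% of all genes. Such shares take no account of how much allowed sequence each gene had.

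Families with a rate below that of all genes in the pooled list included several large ones. F-box genes, which encode adaptors for protein degradation, held members in 13 of 302 genes (4.30%), and C-type lectins in 9 of 235 (3.83%). Cuticle collagens held them in 4 of 129 (3.10%), and MATH and BATH genes in 2 of 72 (2.78%). In the same order the pooled densities were 61.6, 56.4, 60.6 and 35.8 per Mb, against 81.2 over all genes. In replicate 1 they were 185, 226, 194 and 268, against 217 over all genes. C-type lectins and MATH and BATH genes were thus not low in replicate 1. Cytochrome P450 genes, at 6 of 67 (8.96%), fatty acid and lipid genes, at 5 of 63 (7.94%), and prion-like genes, at 5 of 58 (8.62%), were near the rate of all genes. Argonautes had members in 2 of 20 genes, the respiratory chain in 1 of 28 (sdha-2) and the proteasome in 1 of 33 (rpn-13).

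No member lay in the genes of 10 families: cytosolic ribosomal proteins (47 genes with allowed bases), translation factors (38), histones (3), vitellogenins (1), tubulins (10), actins (4), ceh homeobox genes (43), bHLH genes (19), neuropeptides (70) and PUF proteins (9). With 0 of 47 the exact 95% interval reached 7.55%, and with 0 of 70 it reached 5.13%, against 7.88% of all genes. These intervals count genes and take no account of how little allowed sequence each gene had. Neuropeptide genes had 0.0136 Mb of it, out of 16.4 Mb over all genes. Ribosomal protein genes had 0.00933 Mb of allowed coding sequence in all. Replicate 1 had 4 peaks in that sequence and replicate 2 had 0. Major sperm protein genes had no allowed base.

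Short motifs were looked for within 50 bp of the summit on either strand, as descriptions and not as binding sites. AGGTCA, the core of many nuclear receptor sites, was present at 1.95% of members, 1.77% of all autosomal peaks and 2.05% of coding windows. AGTCCA was present at 3.31%, 1.67% and 3.79% in the same order, AGTTCA at 6.16%, 6.57% and 7.37%, and GGGTCA at 1.58%, 0.959% and 1.41%. For each of these 4 strings the members had a share near that of the coding windows. GAGAGA was present at 4.13%, 5% and 5.38%, and CACGTG at 1.65%, 1.00% and 2.68%. Among these strings some share letters at their ends, so a window may count for several.

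AAAAAA and TATAAA were more frequent at members than in coding windows and less frequent than at all autosomal peaks. AAAAAA was present at 24.9% of members, 59.2% of autosomal peaks and 15.2% of coding windows, and TATAAA at 11.3%, 17.1% and 5.62%. TGATAA, which holds a GATA core, was present at 12.5%, 10.9% and 9.28%. TTTCAG, the usual end of a worm intron, was present at 22.6% of members, 21.5% of autosomal peaks and 18.6% of coding windows, and it stands at the exon start in the alh-3 window above. TGATAA and TTTCAG were present at 9.63% and 18.0% of coding exon peaks in replicate 1, and at 12.2% and 23.3% in replicate 2. The excess of these strings over coding windows was thus small or absent in replicate 1. GGGCGG was present at 0.977% of members and 1.33% of coding windows. The shares were 1.65% and 2.05% for GACGCA, and 3.08% and 3.41% for CACACA.

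Along the genome, the density of members was highest on chromosome V, at 103 per Mb (427 members), followed by IV at 89.1 (276). Chromosomes II, III and I had 69.3, 68.4 and 68.0 per Mb (217, 195 and 216 members). Replicate 1 did not share this order, with values between 212 and 225 on the 5 chromosomes. The middle of 3 equal parts of each chromosome together had 89.7 members per Mb and the arms 75.3, while replicate 1 had 210 and 222, and replicate 2 89.7 and 74.4. Most chemoreceptor members named above, daf-11 and icl-1 are on chromosome V.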

How the data were processed

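Peak lists from 2 biological replicates were used as deposited, on ce11, with positions counted from 1. Per the accompanying notes in the deposited files, relaxed peaks came from replicate 1, from replicate 2 and from the pool, with a control in each case, and a thresholded list holds peaks that passed a reproducibility threshold. Caller, aligner, settings and threshold: not given in the sources used here. Signal as deposited (column 7) has a scale of its own in each list and was used to describe and rank peaks. The deposited −log10 q-value was not used, and the deposited summit offset gave each summit. Read depth is unknown, so precision could not be judged from it, and control coverage and the ce10 lists were not used here.

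Classes came from Ensembl release 115 of WBcel235, in the order 5' end, coding exon, untranslated exon, exon of another gene, intron, intergenic. Allowed coding sequence was tiled in windows of 50 bp on either side of a base. Overlaps (at least 1 bp) and other steps were computed with Python 3.11.15, numpy 2.4.6, pandas 2.3.3 and scipy 1.17.1. Intervals on shares are exact (Clopper-Pearson, 95%), and peaks of a gene are not independent. Scripts were tested on simulated data. No test was made, since there is 1 group and peaks are not replicates.

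Named genes were hosts of the 20 strongest members, up to 10 members in the upper 1000 of both replicates, members in the thresholded list, the 8 genes with most members, up to 3 genes per family, nhr-12 and unc-119. Other genes at the 500 bp limit, and rpn-13, hsp-60 and symbol prefixes, were named for the limit or the family count. Members, 29 families by symbol and 13 motifs were chosen with earlier results of these data known. Chosen after values were seen were the GC ranges, the 35% GC split, chromosome centres, overlaps between the replicates' own lists, flank and exon-end measures, symbol prefixes, tighter family patterns (which removed wrong symbols), and the alternatives on transcript 5' ends and on neighbouring peaks. Other alternatives were 250 and 1000 bp limits, every gene biotype, 1 peak per interval, the upper 50% of peaks, the longest transcript, shorter and longer windows for GC content, other overlap rules and each replicate alone. Sequences of other strong members are not reported here.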

Additional observations from a re-analysis of the deposited data

How the results depend on the processing

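Of 94 recomputed values, 70 moved by less than the spread or limit set for them and 24 moved. These allowances were wide, such as a factor of 1.5 for counts. With the limit of 1000 bp, 930 members remained, 3.98% of autosomal peaks, and neither value was among those that moved. With 1 replicate's own list in place of the pooled list, the number of coding exon peaks was 1322 to 3561, their share 5.54 to 14.8%, the median signal percentile 37.3 to 47.0, the median GC content 35.6 to 40.6%, the median relative position 0.581 to 0.621, the last exon share 17.5 to 22.01%, the number of genes 1216 to 2944, and the thresholded share 0.0842 to 0.151%; the upper values of the first 4 and of the genes, and the lower values of the others, are from replicate 1. In the upper 50% of autosomal peaks there were 472 members in 456 genes, with a median percentile of 68.8, a relative position of 0.657, 41.1% in both replicates and 0.424% in the thresholded list. Limits of 250 and 1000 bp gave relative positions of 0.574 and 0.661, and the limit of 1000 bp gave a thresholded share of 0.108%. That share, which rests on 3 members, was 0.167% with 5' ends of every biotype, 0.0751% with summits within 100 bp and 0.0797% without peaks near a stronger one, the last chosen after the data were seen. The share in both replicates was 11.2% with summits within 100 bp, 15.3% with 50% of each interval and 5.56% with the upper 10000 peaks of each replicate. Transcript 5' ends, also added after the data were seen, moved none of the 9 results. The causes were not tested, beyond the stricter overlap and fewer peaks of these settings. No paired analysis was possible because there is 1 group and no result comes from a test. Depth is unknown and limits every list to an unknown degree.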
